A study of Macaca mulatta with 20 samples.

Results

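Corpora lutea of rhesus macaques after 9 days of human chorionic gonadotropin (hCG) were compared with corpora lutea after 3 days of it. The members were chosen by their labels alone, and they are the 4 arrays of hCG day 18 and the 4 arrays of hCG day 12, which make 8 of the 20 arrays of the series. Females received recombinant hCG in rising doses of 15 to 2880 IU, by 2 injections per day into muscle, starting on luteal day 9, a regimen that the labels call simulated early pregnancy. Glands of hCG day 18 were removed on luteal day 18, after 9 days of injections, and glands of hCG day 12 on luteal day 12, after 3 days. The labels give the animals as female and give neither their age nor their genotype, and they do not state that each gland of a group is from another animal, so the spread behind every p-value is that of these samples and may be technical. Luteal day and length of treatment are both higher in hCG day 18, the labels do not give the dose that each group had reached at collection, and the parts of dose, luteal day and length of treatment cannot be told apart. The 8 arrays of hCG days 10 and 15 (1 and 6 days of hCG) entered the model for its estimate of the spread, and the 4 untreated arrays were left out.

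After ovulation the emptied follicle becomes the corpus luteum, the source of the progesterone that holds the uterus ready for an embryo. In primates its lifespan depends on luteinizing hormone and, once an embryo implants, on chorionic gonadotropin from the placenta, which acts through the same receptor and raises cyclic AMP. Steroid-producing luteal cells share the gland with capillary endothelium, pericytes, fibroblasts, macrophages and lymphocytes, and an array of the whole gland reads all of them together.

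Each value is a signal, the brightness of a probe set on an Affymetrix rhesus array in linear intensity units that the authors scaled alike on every array. Precision is limited by the number of arrays. Median signals were 41.1 to 43.9 on hCG day 18 and 31.6 to 43.2 on hCG day 12, with the lowest in hCG day 12 replicate 3. Pairs of arrays correlated at 0.970 to 0.979 within hCG day 18, at 0.959 to 0.977 within hCG day 12 and at 0.950 to 0.974 between them. The excess of the 3' over the 5' actin control, which grows as RNA breaks down, was 0.65 ± 0.10 log2 units on hCG day 18 and 0.91 ± 0.23 on hCG day 12 (SD, n = 4 each, exact permutation p = 0.0571, two-sided, adjusted p = 0.229 over 4 quality measures, with 0.0286 the smallest p that 4 against 4 arrays allow). Its part in the results below was not tested. The tissue label was borne out by luteal genes, since STAR, which carries cholesterol into mitochondria, had signals of 15300 to 18680 on hCG day 18 and 11280 to 23030 on hCG day 12.

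Between 9 and 3 days of hCG the gland differed in 569 of 52707 probe sets (1.08%), of which 271 were higher on hCG day 18 (0.514%) and 298 lower (0.565%). They were called with limma at a Benjamini-Hochberg adjusted p under 0.05, and 6754 probe sets had an unadjusted p under 0.05. The called probe sets cover 133 named genes that rose and 183 that fell, and 207 of them carry no single gene symbol. The largest rise was in the haptoglobin gene HP, and 6 of 15 macrophage markers, 3 of 12 antigen presentation genes and the iron genes CYBRD1 and SLC40A1 also rose. Among the genes that fell were 9 of 19 cell cycle genes, 4 of 18 matrix genes, the steroidogenic genes HSD3B2 and HSD11B1 and the EGF receptor ligand gene AREG. A change of at least 2-fold was measured for 294 of the called probe sets, 130 higher and 164 lower. Of all calls 47.6% were higher, but only 26.9% after the arrays were centred on their medians, with 161 higher and 438 lower. The median log2 change over all probe sets was 0.03, and centring brought it to -0.06. Without hCG day 12 replicate 3 or hCG day 18 replicate 1 the count was 218 or 221. Leaving out hCG day 12 replicate 2 gave 254 and leaving out replicate 4 gave 336, and for hCG day 18 replicates 3 and 4 the counts were 287 and 322.

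**Figure D1:**
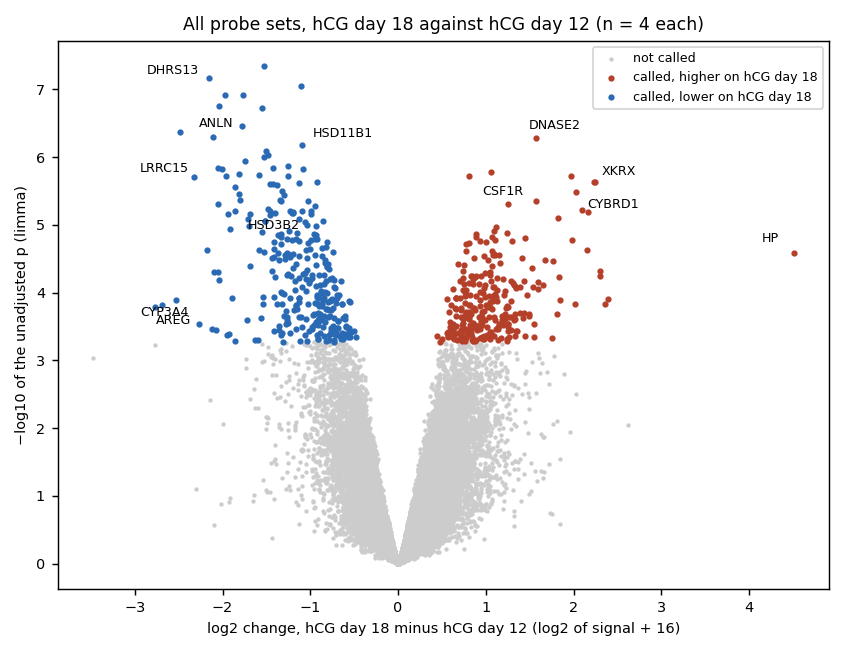
Each point is 1 of 52707 probe sets, with its log2 change (hCG day 18 minus hCG day 12, n = 4 each) on the horizontal axis and the negative log10 of its unadjusted limma p on the vertical axis. The 271 called higher are red, the 298 called lower blue, and HP lies alone at the right at 4.52.

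HP encodes haptoglobin, the plasma protein that binds free haemoglobin. Its signals were 5934, 6695, 5409 and 5410 on hCG day 18, against 151, 53.5, 845 and 413 on hCG day 12. The 4 arrays of hCG day 18 lay within a narrow range far above those of hCG day 12, which themselves spanned over an order of magnitude. The rise was 22.9-fold (log2 change 4.52 ± 0.77, SE, adjusted p = 0.0111), where every fold change and log2 change given here is on the scale of log2 (signal + 16) and understates the change of dim probe sets. The call held without each of the 8 arrays, with log2 changes of 3.89 to 5.10. The red cell marker AHSP was near the lower end of the scale in both groups, at 0.973 ± 0.366 on hCG day 18 and 2.40 ± 2.55 on hCG day 12 (SD, n = 4), and ALAS2 averaged 74.1 ± 16.7 on hCG day 18 and 120 ± 109 on hCG day 12. A second, dim probe set of ALAS2 was at 0.22 (adjusted p = 0.773). Of the 3 red cell genes measured 1 was above 0 and 0 passed. Their summed signals overlapped, at 173 to 396 on hCG day 18 and 139 to 610 on hCG day 12.

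XKRX, of the XK family of membrane proteins, had 633, 835, 648 and 520 on hCG day 18, against 124, 82.5, 100 and 234 on hCG day 12. No array of one group reached the other. Such separation held for 7.35% of all probe sets and was a condition for naming the largest rises and falls. The log2 change of XKRX was 2.23 ± 0.31 (adjusted p = 0.00372), while its other probe sets, both dim, were at 0.05 and -0.15. The keratan sulphate proteoglycan gene OMD had 377, 331, 288 and 652 on hCG day 18, against 140, 32.5, 53.6 and 72.1 on hCG day 12 (2.31 ± 0.42, adjusted p = 0.0154). Its 3 probe sets all passed, at 2.31, 2.30 and 1.81, and the call of the first ended without hCG day 12 replicates 2 or 3 (highest adjusted p = 0.0528). CHAD, another leucine-rich matrix protein, rose as well (1.59 ± 0.30), with signals of 162 ± 36.2 on hCG day 18 and 45.0 ± 21.4 on hCG day 12. The choline transporter family gene SLC44A3 rose by 2.36 ± 0.47 (adjusted p = 0.0254), with 1014 ± 337 on hCG day 18 and 212 ± 166 on hCG day 12.

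PTAFR, the receptor for platelet-activating factor, had 247, 131, 201 and 99.7 on hCG day 18, against 6.73, 53.3, 16.4 and 31.4 on hCG day 12. It rose by 2.16 ± 0.33 (adjusted p = 0.00578), with 3 of its 4 probe sets past the test and the other one dim. The other 2 that passed were at 0.94 and 0.93, and the first was at 2.86 with 1 added in place of 16 and at 1.34 with 64. MS4A8, of a family of membrane-spanning proteins, rose by 2.15 ± 0.36, with its other 2 probe sets, both dim, at -0.12 and -0.06. DPYSL3, a cytoskeletal protein best known from growing neurons, rose by 2.01 ± 0.40 and EVI2A by 1.98 ± 0.32. CAPN11, a calpain protease gene (1.67 ± 0.29, with its other probe set at 0.20), and CD33, a sialic acid receptor of myeloid cells (1.65 ± 0.31), also rose. DNASE2 encodes the lysosomal nuclease that digests DNA of engulfed cells. It had 737, 576, 744 and 541 on hCG day 18, against 241, 151, 192 and 255 on hCG day 12, so that its arrays were well apart (1.57 ± 0.19, adjusted p = 0.00248). PYURF passed in 1 probe set (1.59 ± 0.30), and its other 2 probe sets, at -0.14 and -0.28, did not follow it. The calls of SLC44A3 and DPYSL3 ended without 6 of the 8 arrays in turn, those of CD33 and PYURF without 4, and that of CHAD without hCG day 12 replicate 2 or hCG day 18 replicate 3 (highest adjusted p of these = 0.0802).

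**Figure D2:**
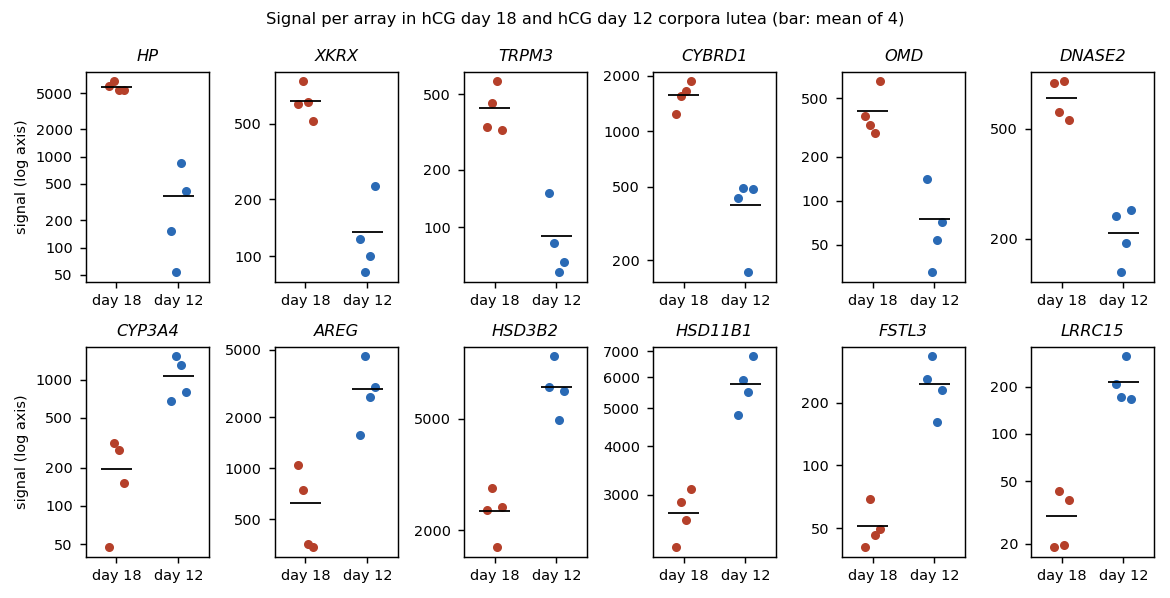
Signals of 12 genes in the single arrays are shown on logarithmic axes, with hCG day 18 in red at the left, hCG day 12 in blue at the right and a bar at the mean of 4. In none of the 12 panels do the arrays of the 2 groups overlap. Except for HSD3B2 and HSD11B1, the genes shown are among the largest changes, which were named only where the groups did not overlap. The spread of HP is wider on hCG day 12 (53.5 to 845) than on hCG day 18 (5409 to 6695).

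Among the steroidogenic genes, HSD3B2, HSD11B1 and MRAP fell past the test. HSD3B2, which converts pregnenolone to progesterone, had 2372, 2824, 1742 and 2421 on hCG day 18, against 6468, 8344, 4934 and 6283 on hCG day 12. The highest array of hCG day 18 lay below the lowest of hCG day 12, a fall of 2.76-fold (-1.47 ± 0.22, adjusted p = 0.00578). HSD11B1, whose enzyme regenerates active glucocorticoid, had 2201, 2882, 2579 and 3113 on hCG day 18, against 4798, 5907, 5519 and 6790 on hCG day 12 (-1.09 ± 0.14, adjusted p = 0.00287). Both calls held without each of the 8 arrays. MRAP, the accessory protein of the ACTH receptor, fell by 0.60 on the log2 scale (SE 0.13, adjusted p = 0.0388), but not when any of 6 arrays was left out (highest adjusted p = 0.122) or when the untreated arrays joined the fit (adjusted p = 0.06). The second probe set of MRAP was at 0.21.

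Of the 17 measured genes of luteal steroidogenesis these 3 fell, 0 rose and 14 did not pass, with a median log2 change of -0.02. Over all 14132 named genes with 1 probe set each, 1.73% were called, 0.651% higher and 1.08% lower, and the median was -0.01. STAR averaged 17390 ± 1607 on hCG day 18 and 16200 ± 5070 on hCG day 12 (SD, n = 4, log2 change 0.15 ± 0.18, adjusted p = 0.803). CYP19A1, the aromatase that makes oestrogen, averaged 10320 ± 2123 on hCG day 18 and 9430 ± 1970 on hCG day 12 (0.13 ± 0.25, adjusted p = 0.883). The signs of both turned under quantile normalization and without hCG day 12 replicate 3. CYP17A1, the enzyme of androgen synthesis, was at 0.76 ± 0.36 (adjusted p = 0.388), with 1599 ± 580 on hCG day 18 and 979 ± 482 on hCG day 12. The progesterone receptor gene PGR was at -0.07 ± 0.21, a sign that turned without hCG day 12 replicates 1 or 2, and the relaxin gene RLN2 at 0.28 ± 0.33 with means of 15600 on hCG day 18 and 13150 on hCG day 12. LHCGR, CYP11A1 and SCARB1 were not named by the annotation used and were not analysed here.

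In cholesterol synthesis and uptake, which supplies the substrate of these enzymes, 0 of 15 measured genes passed in either direction, with 11 above 0 and a median of 0.29. MVD, which makes isopentenyl diphosphate, was at 1.11 ± 0.36 (adjusted p = 0.18), with signals of 974 ± 123 on hCG day 18 and 494 ± 295 on hCG day 12. FDFT1, squalene synthase, had arrays that did not overlap, 4653 to 7422 on hCG day 18 and 3551 to 3973 on hCG day 12, but did not pass (0.58 ± 0.19, adjusted p = 0.189). MYLIP, a ubiquitin ligase gene, was the 1 of 11 genes of cholesterol efflux and lipid storage to pass (0.85 ± 0.19, adjusted p = 0.0479), and its call ended without any 1 of the 8 arrays (highest adjusted p = 0.149) and after median-centring (adjusted p = 0.107).

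CYP3A4 carried the largest fall among the named genes. The enzyme hydroxylates steroids and drugs. Its probe set had 47.2, 314, 279 and 152 on hCG day 18, against 673, 1524, 1307 and 796 on hCG day 12 (-2.53 ± 0.50, adjusted p = 0.0238). The 4 probe sets of the gene disagreed, with the others at -2.14 (adjusted p = 0.131), 0.07 and 0.40, and the probe set called is of a type that can also bind transcripts of related genes. Its call ended without hCG day 12 replicates 2 or 3 or hCG day 18 replicates 1 or 4 (highest adjusted p = 0.077), and with just the 8 arrays in the model (0.0782). DHRS13, of the short-chain dehydrogenase family, had 80.3, 174, 90.8 and 137 on hCG day 18, against 536, 492, 890 and 455 on hCG day 12. Its groups lay far apart, and it fell by 2.16 on the log2 scale (SE 0.23, adjusted p = 0.00128).

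Among the EGF receptor ligands, AREG and HBEGF fell past the test. AREG, amphiregulin, a ligand that LH induces in the ovulating follicle, had 1053, 749, 357 and 343 on hCG day 18, against 1580, 4582, 2654 and 3011 on hCG day 12. The groups did not overlap, and the fall was 4.82-fold (-2.27 ± 0.49, adjusted p = 0.0369). HBEGF, another ligand of the EGF receptor, fell by 1.31 on the log2 scale (SE 0.30, adjusted p = 0.049), with 249 ± 59.7 on hCG day 18 and 664 ± 272 on hCG day 12. Its other probe set, which was dim, was at 0.39 (adjusted p = 0.457). Of the other ligands, EGF was at 1.23 ± 0.35 (adjusted p = 0.117), TGFA at 0.53 ± 0.25 and BTC at 0.50 ± 0.25 (adjusted p = 0.381 and 0.433), none of which passed. In the list of EGF receptor ligands and LH response 2 of 15 measured genes fell and 0 rose, with a median of -0.13, and in cAMP signalling and immediate early factors 0 of 21 passed (median -0.06). The AREG call ended without 6 of the 8 arrays and the HBEGF call without any 1 of them (highest adjusted p = 0.113 and 0.149), and HBEGF missed the threshold after median-centring (0.0507).

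Other signalling genes also fell. FSTL3, which binds and blocks activin, had 40.6, 68.9, 46.2 and 49.4 on hCG day 18, against 259, 333, 162 and 229 on hCG day 12. All 4 arrays of hCG day 18 were under the lowest of hCG day 12 (-1.94 ± 0.29, adjusted p = 0.00578), and FSTL3 was the 1 of 28 genes of the TGF-beta family list to pass. PTGDR, a prostaglandin D2 receptor gene, had 26.3, 20.1, 23.6 and 12.4 on hCG day 18, against 109, 135, 67.2 and 64.5 on hCG day 12 (-1.55 ± 0.25, adjusted p = 0.00846, 1 of 8 genes of its list). The second probe set of PTGDR, at -1.24, did not pass (adjusted p = 0.0938). PTHLH, parathyroid hormone-related protein, was even across hCG day 18 (82.5 ± 9.40) and scattered on hCG day 12 (486 ± 291), and fell by 2.17 on the log2 scale (SE 0.37, adjusted p = 0.0107). This was 1 of its 3 probe sets, and the others, at -1.22 and -0.31, did not pass (adjusted p = 0.142 and 0.67). TNFRSF12A, the receptor of the cytokine TWEAK, fell by 1.56 (SE 0.33, adjusted p = 0.0325), and IL6R, an interleukin-6 receptor subunit, rose by 0.67 (SE 0.15, adjusted p = 0.0479). These were the 2 of 29 genes to pass among chemokines, cytokines and receptors. Without 1 array, the TNFRSF12A call ended for 6 arrays and the IL6R call for 7 (highest adjusted p = 0.0926 and 0.148).

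Every measured gene of the cell cycle list had a log2 change below 0. Of 19 genes 9 fell, 0 rose and 10 did not pass, and the median log2 change was -0.87. The B-type cyclin gene CCNB1, which drives entry into mitosis, had 91.0, 108, 147 and 92.7 on hCG day 18, against 348, 383, 341 and 303 on hCG day 12 (-1.53 ± 0.20, adjusted p = 0.00349). CENPF, a kinetochore protein gene, had 188, 111, 146 and 123 on hCG day 18, against 386, 481, 412 and 397 on hCG day 12 (-1.48 ± 0.19, adjusted p = 0.00349). The highest array of hCG day 18 remained below the lowest of hCG day 12 in both genes. FOXM1, a transcription factor of mitotic genes, was at -1.41 ± 0.21 and the cyclin gene CCNB2 at -1.52 ± 0.24. The other members that passed were the proliferation marker MKI67 (-1.25), the thymidylate synthase gene TYMS (-1.44), the replication genes MCM3 (-0.94) and PCNA (-0.48), and CCNA2 (-0.76).

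Summed over the list, cell cycle signals were 2882 to 3652 on hCG day 18 and 5482 to 6740 on hCG day 12. In bulk tissue, fewer cells of a type and less RNA per cell cannot be told apart. The count of 9 was 4 without hCG day 12 replicate 3 and 5 without hCG day 18 replicate 1. Among genes outside the list, ANLN, which encodes the anillin of the cleavage furrow, had 73.6, 63.5, 94.3 and 59.9 on hCG day 18, against 218, 531, 426 and 344 on hCG day 12 (-2.10 ± 0.26, adjusted p = 0.00248, with 3 of its 4 probe sets past the test). The mitotic kinesin genes KIF23 (-1.45 ± 0.20) and KIF2C (-1.13 ± 0.17, in 1 of its 2 probe sets) fell too. So did the spindle genes GTSE1 (-1.33 ± 0.19, in 2 of its 7 probe sets) and ASPM (-1.24 ± 0.24, in 1 of 3). The replication-linked methylation factor UHRF1 fell as well (-1.37 ± 0.22), and these 5 genes were chosen after their values were seen. HMGB3, a chromatin protein of dividing progenitor cells, fell by 2.04 (SE 0.23, adjusted p = 0.00144). Its 4 probe sets were all below 0 and 2 of them passed. DDX10, an RNA helicase gene, fell in 3 of 4 probe sets, with the largest at -2.05 ± 0.38 and the fourth at 0.39 (adjusted p = 0.484), and its call ended without 4 of the 8 arrays in turn (highest adjusted p = 0.0582).

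**Figure D3:**
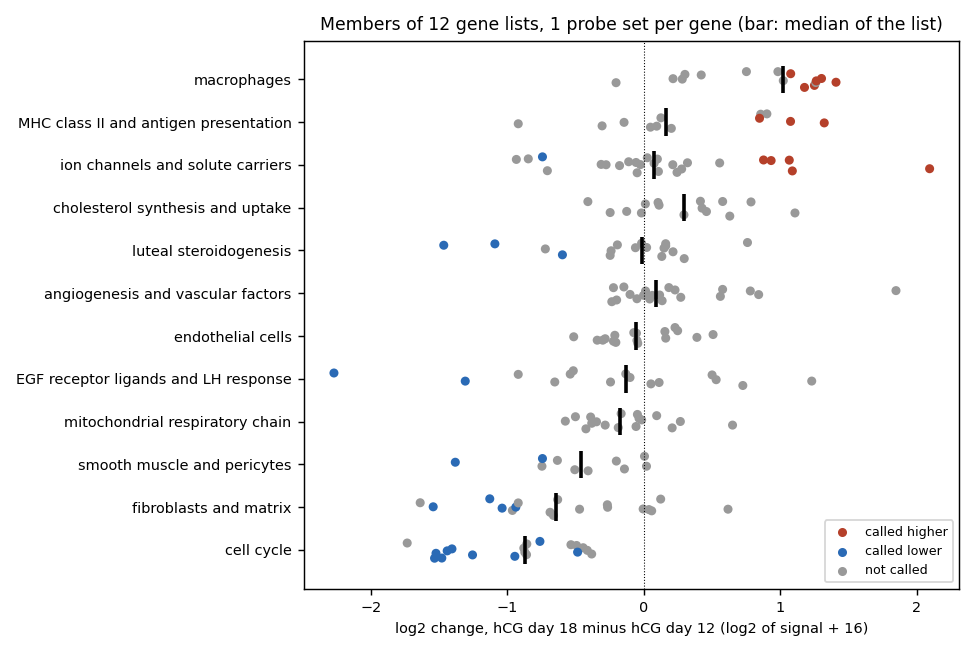
Log2 changes (hCG day 18 minus hCG day 12) of the members of 12 gene lists are plotted with 1 point per gene, red for genes called higher, blue for genes called lower and grey for the rest, and a black bar at each list's median. Macrophage genes lie mostly to the right (median 1.02), cell cycle genes all to the left (median -0.87), and the steroidogenesis list is centred near 0 (-0.02) with 3 genes called lower.

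Macrophage markers were higher after 9 days. Of 15 measured 6 rose, 0 fell and 9 did not pass, 14 were above 0, and the median was 1.02. CSF1R, the receptor that macrophages need for survival, had 882, 589, 830 and 624 on hCG day 18, against 356, 242, 346 and 249 on hCG day 12 (1.25 ± 0.18, adjusted p = 0.00549). The complement C1q genes, which macrophages make, rose together, with C1QC at 1.30 ± 0.21, C1QA at 1.08 ± 0.21 and C1QB at 1.26. C1QC had 2421, 1310, 1626 and 1112 on hCG day 18, against 618, 692, 639 and 536 on hCG day 12. A second probe set of C1QA, at -0.95 (adjusted p = 0.18), did not follow, and the C1QA call ended without 5 of the 8 arrays in turn (highest adjusted p = 0.0784). VSIG4, a complement receptor of resident macrophages, rose by 1.41 ± 0.24 (adjusted p = 0.0117) and the adaptor gene TYROBP by 1.18 (adjusted p = 0.0463). Replicates 1 and 3 of hCG day 18 had the highest signals of CSF1R, C1QC and VSIG4, and every array of hCG day 18 was above every array of hCG day 12.

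The summed signal of the macrophage list was 20715, 11248, 16925 and 11547 on hCG day 18, against 8444, 6684, 7078 and 5696 on hCG day 12, and 1 of its 15 genes, MARCO, had a mean signal under 16 in both groups. The count of 6 was 3 without hCG day 12 replicates 2, 3 or 4 or hCG day 18 replicates 1 or 3. With just the 8 arrays compared in the model it was 1. The myeloid genes that follow were chosen after their values were seen. SIGLEC1, the sialoadhesin of tissue macrophages, rose by 1.11 ± 0.19 (adjusted p = 0.0111), the folate receptor gene FOLR2 by 1.06 ± 0.24, the lysozyme gene LYZ by 1.55 ± 0.35, the lectin gene CD209 by 1.53 ± 0.27 and the scavenger receptor gene CD163L1 by 1.43 ± 0.30. IRF8, a transcription factor of the myeloid lineage, rose by 0.95 ± 0.20 in 1 of its 3 probe sets. Granulocyte and mast cell markers had 0 of 10 genes past the test. S100A8, abundant in neutrophils, had 492, 1595, 77.8 and 144 on hCG day 18, against 43.4, 45.6, 296 and 91.8 on hCG day 12, which overlap (adjusted p = 0.376).

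MHC class II genes are expressed by macrophages and other antigen-presenting cells. Of 12 measured genes of antigen presentation 3 rose, 0 fell and 9 did not pass, with a median of 0.16. CD74, the invariant chain, had 3127, 2401, 1661 and 1900 on hCG day 18, against 1078, 890, 735 and 824 on hCG day 12 (1.32 ± 0.25, adjusted p = 0.019). MAMU-DRA, a class II chain, rose by 0.85 ± 0.16 and MAMU-DMA, which loads peptides, by 1.07 ± 0.18, each in all of its 3 probe sets. Replicate 1 of hCG day 18 was the highest array for all 3 genes, as it was for the macrophage sum, and without it 1 of the 3 passed. The CD74 call ended without any 1 of 4 arrays (highest adjusted p = 0.065). With the untreated arrays in the fit, MAMU-DRA alone passed (adjusted p = 0.0274).

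Lymphocyte markers were called in 1 of 14 genes, the immunoglobulin joining chain gene JCHAIN, with 96.3, 31.95, 80.1 and 76.2 on hCG day 18, against 18.1, 27.8, 10.6 and 3.36 on hCG day 12. The signals of JCHAIN are low, and its log2 change of 1.49 ± 0.31 (adjusted p = 0.0321) was 2.37 with 1 added in place of 16 and 0.76 with 64. Its call ended without 6 of the 8 arrays in turn (highest adjusted p = 0.108). Interferon response genes had 0 of 18 past the test (median 0.01), and in complement and acute phase HP was the 1 of 17 called.

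**Figure D4:**
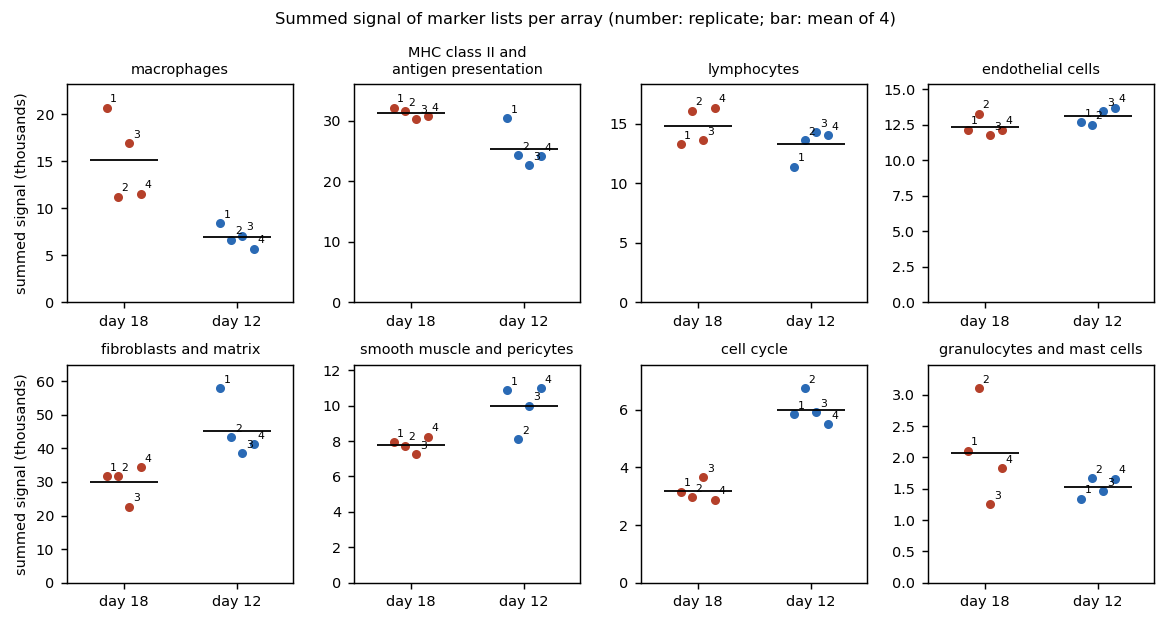
Summed signals of 8 marker lists, in units of 1000, are shown per array, with hCG day 18 in red at the left, hCG day 12 in blue at the right, replicate numbers beside the points and a bar at the mean of 4. Macrophage sums of hCG day 18 (11248 to 20715) lie above those of hCG day 12 (5696 to 8444), cell cycle and matrix sums lie below, and endothelial, lymphocyte and granulocyte sums overlap.

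Genes of fibroblasts and matrix were mostly lower. Of 18 measured 4 fell, 0 rose and 14 did not pass, with 14 below 0 and a median of -0.65. COL1A1, a chain of type I collagen, had 802, 1564, 502 and 623 on hCG day 18, against 3498, 1794, 1871 and 2556 on hCG day 12 (-1.54 ± 0.30, adjusted p = 0.0232). FN1, fibronectin, had 2285, 2679, 2126 and 2623 on hCG day 18, against 6440, 6000, 4671 and 4385 on hCG day 12 (-1.13 ± 0.21, adjusted p = 0.0168). Neither gene's groups overlapped, but the COL1A1 call ended without 5 of the 8 arrays in turn and the FN1 call without 3 (highest adjusted p = 0.0733 and 0.0558). LAMB1, a laminin chain of basement membranes, was at -0.94 ± 0.17 and THY1, a surface protein of fibroblasts, at -1.04 ± 0.18, and their calls held without each of the 8 arrays. Second probe sets of LAMB1, THY1 and FN1 did not pass, at -0.79, -0.46 and -0.63 (adjusted p = 0.105, 0.54 and 0.629). That of COL1A1, which was dim, was at 0.03. Without hCG day 18 replicate 1 or 3 the count of 4 was 2. The summed signal was 22639 to 34376 on hCG day 18 and 38486 to 57890 on hCG day 12, with the highest in hCG day 12 replicate 1.

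LRRC15, a membrane protein of activated fibroblasts, had 19.0, 43.2, 19.5 and 38.2 on hCG day 18, against 210, 171, 312 and 166 on hCG day 12. It fell 5.01-fold (-2.33 ± 0.32, adjusted p = 0.00361), and its other probe set was dim, near 2 in both groups. Further matrix genes that fell were chosen after their values were seen. COL21A1 was at -1.41 ± 0.31, CCDC80 at -1.05 ± 0.19 (called in 1 of its 3 probe sets) and FBN2 at -0.99 ± 0.16 (1 of 2). FRAS1 was at -1.20 ± 0.18 (1 of 3) and the procollagen protease gene ADAMTS2 at -0.90 ± 0.19 (1 of 3). ITGA2, the collagen-binding integrin chain, was the 1 of 22 adhesion genes to pass (-1.42 ± 0.28, adjusted p = 0.0233), a call that ended without 5 of the 8 arrays in turn (highest adjusted p = 0.0718). Not every matrix gene fell, since OMD and CHAD are matrix genes too and rose. Among the 21 matrix metalloproteinases and inhibitors 0 passed, with TIMP2 at 0.57 ± 0.16 (adjusted p = 0.102).

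In smooth muscle and pericytes 2 of 10 genes fell and 0 rose, with a median of -0.46. The smooth muscle actin gene ACTG2 had 220, 249, 251 and 266 on hCG day 18, against 751, 657, 597 and 671 on hCG day 12 (-1.38 ± 0.19, adjusted p = 0.00377). Both groups were tight and well apart, and a second of its 3 probe sets passed at -1.15. KCNJ8, a potassium channel of pericytes, fell by 0.74 (SE 0.15, adjusted p = 0.0271), a call that ended without 6 of the 8 arrays in turn (highest adjusted p = 0.0777). The summed signals of the list overlapped, at 7254 to 8252 on hCG day 18 and 8092 to 10987 on hCG day 12. Endothelial markers had 0 of 17 genes past the test, a median of -0.05 and summed signals of 11779 to 13297 on hCG day 18 and 12511 to 13708 on hCG day 12. Angiogenic factors had 0 of 20, with ANGPTL4 at 0.84 ± 0.24 and ADM, adrenomedullin, at 0.78 ± 0.23 (adjusted p = 0.122 and 0.131).

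CYBRD1 and SLC40A1, which act in iron handling, both rose. CYBRD1, a ferric reductase, had 1234, 1552, 1646 and 1860 on hCG day 18, against 436, 496, 172 and 487 on hCG day 12 in one probe set (2.03 ± 0.29, adjusted p = 0.00439). Its second probe set, the brighter of the pair, averaged 6131 ± 1056 on hCG day 18 and 2898 ± 640 on hCG day 12 (1.09 ± 0.17, adjusted p = 0.00814), so that both rose but by different amounts. SLC40A1, ferroportin, the iron exporter, had 5040, 3989, 5658 and 5538 on hCG day 18, against 2923, 2432, 2832 and 2331 on hCG day 12 (0.93 ± 0.18, adjusted p = 0.0238). Its call ended without 6 of the 8 arrays (highest adjusted p = 0.0788) and after median-centring (0.0576).

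A list of iron and haem handling, added after these values were seen, had 24 of 31 genes measured. HP, SLC40A1 and CYBRD1 rose, ALAS1 fell and 20 did not pass. ALAS1, the first enzyme of haem synthesis outside red cells, had 1170, 1959, 2167 and 1850 on hCG day 18, against 5840, 3668, 7246 and 4274 on hCG day 12 (-1.53 ± 0.31, adjusted p = 0.0254). The transferrin receptor gene TFRC, which takes iron in, did not pass, although its arrays were apart, with 1688 to 2004 on hCG day 18 and 3274 to 3542 on hCG day 12 (-0.93 ± 0.22, adjusted p = 0.0607). The ferritin light chain gene FTL was at 0.69 ± 0.18 (adjusted p = 0.0807).

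In the list of ion channels and solute carriers, which also holds the reductase gene CYBRD1, 5 of 25 genes rose and 1 fell, with a median of 0.08. Like the other lists, it was chosen with earlier results of these data known. Besides CYBRD1 and SLC40A1, the genes that rose were TRPM3, KCNQ1 and SLC1A3, a glutamate transporter gene (0.88, adjusted p = 0.0481). KCNJ8 was the one that fell. CYBRD1 and SLC40A1 are counted in the iron list too, and KCNJ8 in that of smooth muscle and pericytes. TRPM3, a cation channel, had 334, 447, 582 and 325 on hCG day 18, against 152, 82.8, 57.9 and 65.2 on hCG day 12 (2.09 ± 0.31, adjusted p = 0.00578), while its other 2 probe sets were at 0.37 and 0.19. The potassium channel gene KCNQ1 rose by 1.07 ± 0.19 (adjusted p = 0.0135). The count of 5 was 3 after median-centring, and 3 without any 1 of hCG day 12 replicates 2, 3 and 4 and hCG day 18 replicates 1, 3 and 4.

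Energy metabolism showed few calls. The hexokinases, which trap glucose in the cell, were the 2 of 18 genes of hypoxia and glycolysis to pass. HK2 had 432, 602, 415 and 580 on hCG day 18, against 1254, 825, 1260 and 1467 on hCG day 12 (-1.21 ± 0.20, adjusted p = 0.00897). HK1 fell by 1.09 (SE 0.20, adjusted p = 0.0162) in 1 of its 4 probe sets, a call that ended without hCG day 12 replicate 3 or hCG day 18 replicates 1 or 3 (highest adjusted p = 0.0564). Respiratory chain genes had 0 of 18 past the test with a median of -0.18, antioxidant genes 0 of 19 (-0.04) and lysosome and autophagy genes 0 of 18 (0.22). GCLC, a subunit gene of glutathione synthesis, is counted in the antioxidant list by its brightest probe set (0.15 ± 0.19, adjusted p = 0.82), while 2 of its 5 probe sets were called lower, at -1.004 and -0.85 (adjusted p = 0.0173 and 0.0238), an example chosen after its values were seen. CTSL, a lysosomal protease, was at 0.71 ± 0.17 and CTSD, another, at -0.75 ± 0.19 (adjusted p = 0.0537 and 0.0787). ADA, adenosine deaminase, had 396, 412, 399 and 302 on hCG day 18, against 866, 1864, 1544 and 2021 on hCG day 12 (-1.96 ± 0.27, adjusted p = 0.00359). PPIF, the cyclophilin of the mitochondrial permeability pore, fell by 1.89 (SE 0.37, adjusted p = 0.0233), a call that ended without 6 of the 8 arrays in turn (highest adjusted p = 0.0784).

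IFT46, a protein of ciliary transport, fell by 2.01 (SE 0.27, adjusted p = 0.00359), while a second probe set of it was at -0.11. The cardiac troponin gene TNNI3 (-2.12 ± 0.47), OSGIN1, an oxidative stress-induced growth inhibitor (-2.10 ± 0.38), and DCLK1, a microtubule-associated kinase (-1.95 ± 0.44), also fell. DCLK1 passed in all 3 of its probe sets and OSGIN1 in 1 of 2, with the other at 0.39. The calls of TNNI3 and DCLK1 ended without 7 of the 8 arrays in turn and that of OSGIN1 without hCG day 12 replicate 3 (highest adjusted p = 0.13, 0.116 and 0.0552). Of the 19 neuronal-type genes, DPYSL3 rose and the neuronal tubulin gene TUBB3 fell (-0.83 ± 0.16, adjusted p = 0.0215). The TUBB3 call ended without 6 of the 8 arrays in turn (highest adjusted p = 0.065) and with just the 8 arrays in the model (0.0672).

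The lists of apoptosis (21 genes), steroid and nuclear receptors (21), IGF and insulin (14), peptide hormones (20), WNT signalling (26), heat shock (10), follicle cells (13), epithelia (13), fat cells (6) and red blood cells (3) had 0 genes past the test in limma. At an unadjusted p under 0.05 their counts were 2, 3, 3, 4, 6, 2, 2, 0, 1 and 0 in that order. The other lists with 0 calls had 9 such genes in lysosome and autophagy, 7 in the respiratory chain, 5 each in cholesterol synthesis and in metalloproteinases, 4 in angiogenesis, 2 each in interferon response and antioxidant defence, and 1 each in cAMP signalling, endothelium, and granulocytes and mast cells. The transcription factor gene CEBPD had 1060, 691, 933 and 911 on hCG day 18, against 620, 499, 437 and 439 on hCG day 12 (0.83 ± 0.19, adjusted p = 0.0543). The arrays of CEBPD did not overlap, as was the case for 3875 probe sets (7.35%) and for 564 of the 569 called. BCL2L11, a pro-apoptotic gene, was at 0.66 ± 0.16 and MCL1, an anti-apoptotic one, at 0.71 ± 0.19 (adjusted p = 0.0693 and 0.1). FZD4, a frizzled receptor, was at -0.72 ± 0.18 (adjusted p = 0.0644).

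The arrays of hCG day 15 (6 days of hCG) lie in time between the groups compared. Their mean was between those of hCG days 18 and 12 for 266 of the 271 probe sets called higher and for 295 of the 298 called lower. The same held for 93.8% of the 419 probe sets with an absolute log2 change of at least 1 that were not called, and for 44.7% of all probe sets. A median of 41.1% of the rise and of 50.9% of the fall had been reached on hCG day 15. HP had most of its rise after hCG day 15, with mean signals of 224, 366, 843 and 5862 on hCG days 10, 12, 15 and 18. CSF1R was near its earlier level on hCG day 15, with 323, 298, 333 and 731 on the same days, as were C1QC (680, 621, 761 and 1617) and CD74 (1144, 882, 994 and 2272). AREG was highest at the start, with 7158, 2957, 1166 and 626, and HSD3B2 likewise, with 10320, 6507, 4347 and 2340. The mitotic cyclin gene CCNB1 was level on the first days and lower after, with 387, 344, 181 and 110. These courses are a description, since the calls were made on their end points.

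**Figure D5:**
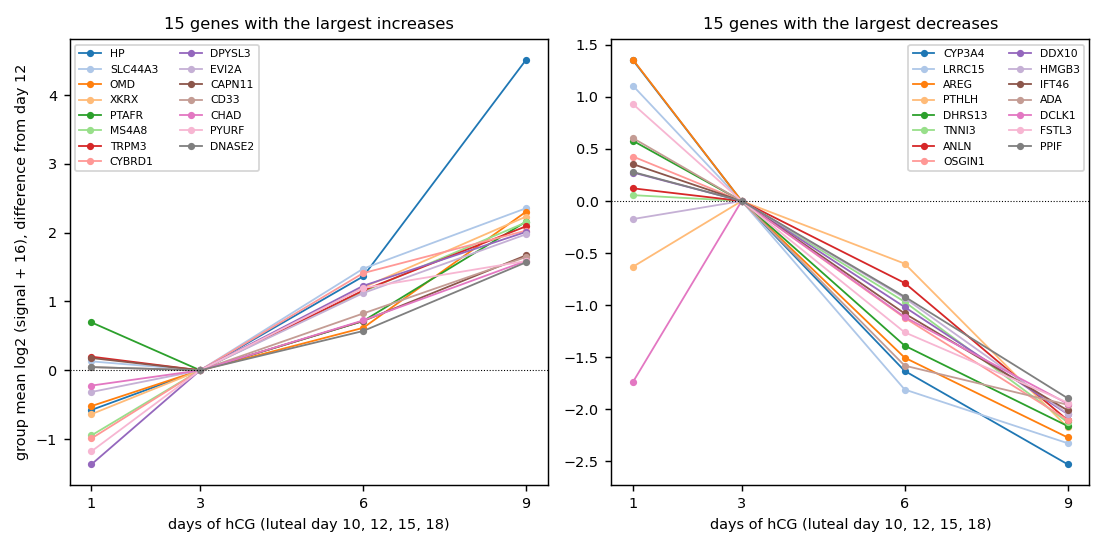
Group means of log2 (signal + 16) on hCG days 10, 12, 15 and 18, as differences from the mean of day 12, are drawn against the length of treatment for the 15 genes with the largest called rises (left) and the 15 with the largest called falls (right), n = 4 per point. All 15 lines in each panel have their day 15 mean between those of days 12 and 18, and HP ends highest, at 4.52.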

How the data were processed

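RNA of whole corpora lutea, extracted with TRIzol, was copied into biotin-labelled cRNA and hybridized to Affymetrix rhesus arrays, 1 array per sample. The deposited values are linear intensity units, made by the authors with GCOS per the submitters' processing notes, with the version not given in the sources used here. In the table the 2% trimmed mean is close to 200.01 on every array, which shows that the authors scaled them to one target. No detection calls were used.

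Of 52865 probe sets, 158 array controls were left out. Symbols came from the platform annotation, and 24616 probe sets matched RefSeq by gene ID. Of those tested, 24956 carry 1 symbol (14132 genes), 361 several and 27390 none. Genome positions and sequences were not used here.

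A mean per group was fitted to log2 (signal + 16) of the 16 hCG arrays in R 4.3.3 with limma 3.58.1, using eBayes and a two-sided contrast of hCG day 18 minus hCG day 12. Calls are at a Benjamini-Hochberg adjusted p under 0.05 over all 52707 probe sets. Errors of log2 changes are SE, those of signals SD over 4 arrays. The 37 gene lists, with 599 of 840 genes measured, use the probe set of each gene that has the highest mean. The members and lists were chosen with earlier results of these data known.

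Named are up to 15 genes in each direction by size of change, taken from probe sets that have 1 symbol, passed and do not overlap between groups, up to 4 called members of each list (or up to 2 as values) and 12 fixed genes. Further genes are said to be chosen after their values were seen, and each is given by its probe set with the smallest p. The added iron list uses the probe set with the highest mean. Alternatives were other fits, normalizations, pseudocounts, filters and single arrays left out. The main fit was tested on simulated data, with changes placed only in brighter probe sets and noise drawn independently per probe set and array. It called 56 of 100 planted 2-fold changes and 91 of 100 planted 4-fold changes, and 13 unchanged probe sets. A 2-fold change can therefore be missed. Effects shared by many probe sets of an array were not simulated, so these rates may not hold for the real arrays. Figures used matplotlib (version 3.10.9) in Python (version 3.11.15).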

Additional observations from a re-analysis of the deposited data

Results flagged for a closer look

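Over 107 probe sets of named genes, each group of 4 arrays was tested for a single array that stood apart by Dixon's 95% criterion. CYBRD1 entered by both of its probe sets. Of 214 groups tested 10 held such an array, 8 on hCG day 18 and 2 on hCG day 12, and chance flags about 1 in 20.

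On hCG day 18, the high arrays were replicate 4 for SLC44A3 (1518, next 866.9), replicate 2 for FOSL2 (661, next 472.3), replicate 3 for CCNB2 (93.25, next 52.9) and replicate 1 for BCL2L11 (835.7, next 527.1). The low arrays of hCG day 18 were replicate 2 for HMGB3 (82.47, next 166.6), replicate 4 for ADA (302.2, next 395.8), replicate 4 for ITGA2 (112.3, next 210.6) and replicate 1 for KCNQ1 (143.7, next 201.1). On hCG day 12, replicate 3 was low for CYBRD1 (172.4, next 436) and replicate 2 for CFD (189, next 277.4).

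Of these genes, SLC44A3, CYBRD1, HMGB3, ADA, CCNB2, ITGA2 and KCNQ1 passed the comparison of hCG day 18 with hCG day 12, and in each the 2 groups did not overlap. FOSL2 (adjusted p = 0.391), CFD (0.15) and BCL2L11 (0.0693) did not pass.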

How the results depend on the processing

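Of 569 probe sets called, 0 turned direction in any of the 21 alternative fits that held them. In several of these fits no sign could turn, because the log2 change stays the same by construction. These are the fits with all 20 arrays, the 8 arrays alone, the replicate block, the variance trend and the required fold change. The 2 filters, upper 50% by signal and 1 probe set per gene, also keep it and drop some probe sets. The count of calls moved. It was 206 when just the 8 arrays compared were fitted, 255 with a pseudocount of 1 and 294 with a fold change of at least 2 required, and between 218 and 437 with 1 array left out. It was 753 with all 20 arrays and 479 without hCG day 12 replicate 1 and hCG day 15 replicate 2 together. The values here do not show that these 2 arrays lie apart from the rest. The array with the lowest median signal, hCG day 12 replicate 3, stayed in that fit, and the count without it was 218. The count was 589 under quantile normalization, 599 after median-centring and 800 in the upper 50% of probe sets by signal. It was 709 with a pseudocount of 64, 576 with a variance trend, 803 with array weights and 419 with 1 probe set per gene. Whether replicate numbers pair the samples cannot be told from these values. Deviations of same-numbered arrays correlated at 0.04, -0.28, 0.13 and -0.02, and those of other pairs at -0.23 to 0.27. With the replicate number as a block, 487 were called, 237 higher and 250 lower, and 423 of them were also called without the block. Of 63 called probe sets of named genes, with CYBRD1 counted by both of its probe sets, 34 held without each of the 8 arrays. The other 29 ended without at least 1, with highest adjusted p of 0.0528 to 0.149. Leaving out hCG day 12 replicate 1 ended 12 calls, replicate 2 ended 21, replicate 3 ended 23 and replicate 4 ended 18. For hCG day 18 the numbers were 24 for replicate 1, 8 for replicate 2, 20 for replicate 3 and 18 for replicate 4. With all 20 arrays 4 ended, MRAP, C1QA (adjusted p = 0.0786), MAMU-DMA (0.0834) and CD74 (0.0504), and with just the 8 arrays 26 ended. The block ended 7, AREG (0.0648), TNNI3, DCLK1, MRAP, MYLIP, COL1A1 and TNFRSF12A. Values near 0 that were not called changed sign. Without hCG day 12 replicate 1 and hCG day 15 replicate 2, the log2 change of ALAS2 was 0.1344 and that of PGR 0.0077. Under quantile normalization STAR was at -0.0631 and CYP19A1 at -0.0185. With 1 array left out, ALAS2 ran between -0.6167 and 0.1344 (positive without hCG day 12 replicate 1), STAR between -0.0089 and 0.334 and CYP19A1 between -0.0113 and 0.2614 (both negative without hCG day 12 replicate 3), and PGR between -0.202 and 0.0933 (positive without hCG day 12 replicates 1 or 2). The excess of 3' over 5' GAPDH signal was positive on every array, with means of 0.79 on hCG day 18 and 0.81 on hCG day 12. The small difference between these means turned sign without hCG day 12 replicate 1 and without hCG day 18 replicates 1 or 3. Its exact permutation p was 0.314 to 0.943 over the 8 omissions. The cause of these changes was not tested. In called probe sets with a mean signal under 16 (25 on hCG day 18, 32 on hCG day 12), the size of the change depends on the 16 added.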

Other observations

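Genes outside the lists that passed between hCG day 18 and hCG day 12 were singled out after their values were seen. The largest of the falls named here was in PAPSS2, which makes the sulphate donor of sulphation, with 92.4, 127, 250 and 93.5 on hCG day 18, against 540, 665, 533 and 364 on hCG day 12 (log2 change -1.86 ± 0.28, adjusted p = 0.00578, 1 of its 4 probe sets). The transcriptional repressor genes HEY2 (-1.13 ± 0.16) and HES2 (-1.36 ± 0.30, 1 of its 2 probe sets) fell as well. So did SPRY4, an inhibitor of receptor tyrosine kinase signalling (-1.27 ± 0.27). HEY2 had 91.7 to 111 on hCG day 18 and 206 to 269 on hCG day 12, and both of its probe sets passed. MITF, a transcription factor of lysosomal and pigment genes, had 284, 314, 313 and 284 on hCG day 18, against 608, 574, 593 and 540 on hCG day 12. The spread was narrow in both groups (-0.92 ± 0.13, adjusted p = 0.00372, 1 of its 2 probe sets). BCHE, butyrylcholinesterase, fell by 1.26 on the log2 scale (SE 0.21, 2 of its 4 probe sets), with means of 1902 on hCG day 18 and 4555 on hCG day 12. GPI, the glycolytic isomerase, fell by 1.28 (SE 0.22) in 1 of its 3 probe sets.

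Among the genes that rose were some enzymes of the lysosome. They were ASAH1, acid ceramidase (0.76 ± 0.16, 3 of its 5 probe sets), and SMPD1, acid sphingomyelinase (0.86 ± 0.17, 1 of 3). SCPEP1, a serine carboxypeptidase, was another (1.11 ± 0.18, 1 of 3). The list of lysosome and autophagy genes had 0 of 18 past the test, with 12 above 0 and 6 below. The membrane protein gene STOM, stomatin, had 4963, 4105, 4906 and 4543 on hCG day 18, against 2596, 2645, 2502 and 2778 on hCG day 12 (0.81 ± 0.13, adjusted p = 0.00916, 2 of its 4 probe sets). NUPR1, a stress-induced nuclear protein, rose by 1.45 ± 0.24. The proteoglycan gene SDC1 rose by 1.05 ± 0.19 (2 of its 4 probe sets) and the laminin receptor gene ITGA6 by 0.74 ± 0.16 (1 of 4). KANK4 was called (1.84 ± 0.37, adjusted p = 0.0238) although its groups overlap, with 320, 1321, 1309 and 1198 on hCG day 18, against 260, 193, 199 and 335 on hCG day 12.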
